A study of Mus musculus with 6 samples.

Results

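Cytokine, chemokine and NF-kB pathway genes were examined in mouse colorectal cancer organoids in which Gata6, a zinc-finger transcription factor of gut epithelium, was targeted. The set holds 38 genes, out of 54418 Ensembl genes in the deposited table. They were picked by symbol, but with earlier results of these data known. They comprise 10 chemokines, 3 colony-stimulating factors or ligands of their receptors, 8 other cytokines, the interleukin-1 receptor antagonist Il1rn, 4 NF-kB subunits, 4 proteins of the IkB family, 5 feedback regulators or targets, and 3 receptors or adaptors. All 38 had a row, and 32 had enough counts to be tested. The other 6 (Cxcl3, Ccl28, Csf2, Il1b, Il6 and Tslp) are given by their counts.

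The libraries came from AKP organoids, epithelial cultures grown as self-organising structures. The labels do not spell out the name AKP. GATA6KO (3 libraries) and Control (3 libraries) are the only groups, and both are AKP. The series text speaks of lines from primary tumours and liver metastases, but no label says which line these libraries came from. How the knockout was made, whether the cultures were clones, and the age, sex and strain of the source animals were not given. Replicates may therefore be technical, and p-values speak of the spread among these libraries alone. Libraries held 29208525 to 29674562 estimated counts in GATA6KO and 22973245 to 31328415 in Control. In a library, a count of 0 allows up to 3 counts, or 0.0982 to 0.131 CPM (counts scaled to 1000000 per library), which covers counting error alone.

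Gata6, the targeted gene, had 14.3, 16.0 and 8.24 CPM in GATA6KO, against 25.3, 23.2 and 28.0 CPM in Control (log2 fold change -0.99, SE 0.25, edgeR adjusted p = 0.0486, and 0.128 to 0.181 without Control replicate 1, 2 or 3). Transcript remained in every GATA6KO library, and the labels do not place the lesion. The epithelial markers Krt19, Krt8 and Krt18 were abundant in both groups, with means of 2608, 2242 and 629 CPM in GATA6KO and 3393, 3272 and 1126 CPM in Control. The 10 epithelial markers summed to 6839 to 7949 CPM in GATA6KO and 9966 to 10770 CPM in Control. Of the 10, 4 fell, as did 5.47% of all genes tested, and 9 lay lower in GATA6KO without overlap. Of 21 immune cell markers, 17 never exceeded 11 counts per library, and 5 had none anywhere. The pan-leukocyte gene Ptprc was among the 17. The list nonetheless summed to 209 to 369 CPM in GATA6KO and 477 to 565 CPM in Control, nearly all of it Ly6g, a gene used as a neutrophil marker, at means of 298 CPM in GATA6KO and 504 CPM in Control. The macrophage marker Cd68 fell (3.43 and 11.9 CPM, adjusted p = 0.0190), and the neutrophil gene S100a8 was not called (2.61 and 9.17 CPM). All 4 immune markers with enough counts to be tested lay lower in GATA6KO without overlap, as did 20.5% of all genes tested. The part of these markers in the results below was not tested. Fibroblast markers summed to 1.08 to 4.37 CPM in GATA6KO and 1.73 to 2.17 CPM in Control, and endothelial markers to 3.54 to 5.72 CPM in GATA6KO and 2.72 to 2.77 CPM in Control, most of each in Fbln1 and Vwf, which were not called; the other 9 and 6 genes had at most 10 and 16 counts in a library. Mitochondrial genes held 2.07%, 2.84% and 2.81% of counts in GATA6KO and 1.86%, 1.88% and 1.85% in Control, and their part in the results was not tested either. GATA6KO replicate 2 stands apart in that its chromosome 14 genes lay at -0.90 (median log2 against Control); 0 of the 38 genes lie on that chromosome.

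NF-kB is a family of dimeric transcription factors that IkB proteins hold in the cytoplasm. Signals from receptors of tumour necrosis factor, interleukin-1 and microbial products lead to loss of the inhibitor, and the freed dimers switch on chemokines, cytokines and the pathway's own brakes, among them Nfkbia and Tnfaip3. In the gut, epithelial cells use these secreted proteins to call in neutrophils, dendritic cells and lymphocytes.

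Several of these genes carry a site for NF-kB just upstream of their start, and 8 such stretches are printed because the genes below are read against them. Each is the 160 bases before the RefSeq start on GRCm38.p6, 5′ to 3′ on the strand of the gene, with matches to the kB consensus (10 bases, either strand, overlapping matches merged) in capitals. The first 3 are neutrophil chemokines that share 1 site, the next 2 are chemokines with log2 fold changes of opposite sign, of which Ccl20 was called, and the last 3 are brakes of the pathway that fell. Each printed stretch holds a match, but no rule picked them among the 12 genes with one, and every called gene with a match is printed. The stretches therefore cannot tie a match to a rise or a fall. Csf1, Nfkb2 and Nfkbie (not called, log2 fold changes 0.67, -0.31 and 0.59) and Il6 (not tested) hold a match too.
Cxcl1, chr5:90891085-90891244, plus strand: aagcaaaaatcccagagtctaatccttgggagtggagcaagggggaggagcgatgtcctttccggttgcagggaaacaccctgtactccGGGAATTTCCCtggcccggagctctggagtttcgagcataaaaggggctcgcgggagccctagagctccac
Cxcl2, chr5:90903739-90903898, plus strand: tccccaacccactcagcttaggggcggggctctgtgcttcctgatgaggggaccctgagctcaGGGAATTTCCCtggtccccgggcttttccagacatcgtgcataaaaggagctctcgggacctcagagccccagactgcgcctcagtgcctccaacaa
Cxcl3, chr5:90785941-90786100, plus strand: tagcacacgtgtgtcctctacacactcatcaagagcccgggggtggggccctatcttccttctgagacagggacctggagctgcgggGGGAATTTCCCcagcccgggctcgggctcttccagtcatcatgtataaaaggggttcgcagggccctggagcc
Cxcl10, chr5:92348890-92349049, minus strand: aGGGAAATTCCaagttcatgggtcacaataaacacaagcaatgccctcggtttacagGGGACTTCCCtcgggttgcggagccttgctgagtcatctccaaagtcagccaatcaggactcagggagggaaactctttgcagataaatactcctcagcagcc
Ccl20, chr1:83116606-83116765, plus strand: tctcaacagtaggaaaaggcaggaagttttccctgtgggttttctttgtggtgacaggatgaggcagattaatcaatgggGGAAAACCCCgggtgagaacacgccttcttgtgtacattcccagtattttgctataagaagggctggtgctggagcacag
Nfkbia, chr12:55492648-55492807, minus strand: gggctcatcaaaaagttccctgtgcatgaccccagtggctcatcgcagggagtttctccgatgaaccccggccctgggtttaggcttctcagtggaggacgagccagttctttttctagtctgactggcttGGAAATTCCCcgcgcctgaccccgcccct
Tnfaip3, chr10:19015411-19015570, minus strand: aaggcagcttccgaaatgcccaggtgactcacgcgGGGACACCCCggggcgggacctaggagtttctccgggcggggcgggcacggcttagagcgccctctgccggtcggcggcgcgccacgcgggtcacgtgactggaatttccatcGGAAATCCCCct
Tnip1, chr11:54962941-54963100, minus strand: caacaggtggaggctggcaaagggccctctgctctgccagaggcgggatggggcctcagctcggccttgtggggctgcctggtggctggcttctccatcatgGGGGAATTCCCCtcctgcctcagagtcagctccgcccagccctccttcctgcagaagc

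The site GGGAATTTCCC stood in Cxcl1 at 71 to 61, in Cxcl2 at 97 to 87 and in Cxcl3 at 73 to 63 bases before the start. Nfkbia had GGAAATTCCC at 29 to 20 bases and Tnip1 had the palindrome GGGGAATTCCCC at 58 to 47 bases before the start. Of the 38 genes, 29 had an entry in the promoter table, and 12 of them (41.4%) held a kB match within 250 bases, against 4.46% of 27025 genes. Counted by start rather than by gene, the figures were 14 of 35 and 3.9% of 32851 starts. A site for GATA factors (AGATAA with its variant AGATAG, and the form TGATAA with its variant TGATAG, on either strand) was in 9 of the 29 (31%), against 29.7% of all genes. The AP-1 motif (TGANTCA, either strand) was in 7 of the 29 (24.1%, against 7.82%) and the interferon response element in 3 (10.3%, against 3.46%). These are matches of letters; no binding was measured, and many of the members are textbook NF-kB targets.

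Among the 32 genes tested, Il18 and Ccl20 rose, and Il1rn, Cxcl16, Cx3cl1, Nfkbia, Tnfaip3 and Tnip1 fell. The count is 2 higher (6.25%) and 6 lower (18.8%), where 6.92% of all 14714 genes tested were called higher and 5.47% lower. The median log2 fold change was -0.07 over the 32 and 0.02 over all genes tested. Groups did not overlap for 19 of the 32 (59.4%), as for 40.8% of all genes tested. Called means a Benjamini-Hochberg adjusted p under 0.05 from edgeR's quasi-likelihood test, and 12.4% of all genes tested were called in either direction. In bulk RNA, fewer cells with a transcript and less transcript per cell cannot be told apart. Leaving out any 1 of the Control libraries (replicate 1, 2 or 3) ended all 8 calls: there, edgeR called 0 higher and 0 lower, with 3 to 4 higher and 7 to 8 lower at an unadjusted p under 0.05. The share of all genes at that unadjusted cut-off is not given. Counts at an unadjusted p, here and below, thus have no baseline and lend no support.

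**Figure D1:**
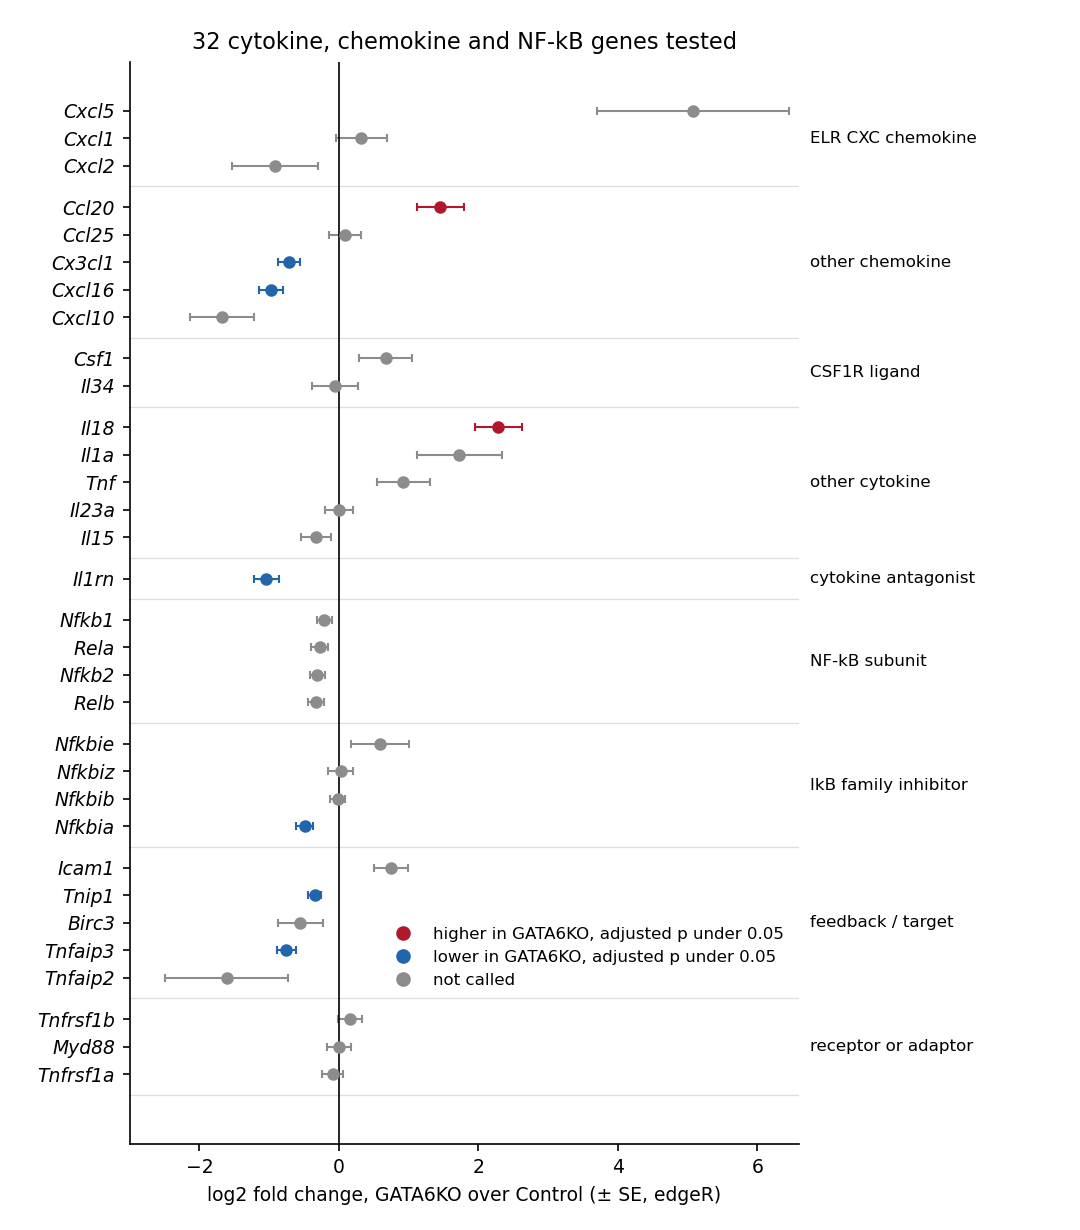
Log2 fold change of GATA6KO over Control (points) with its SE (bars) for the 32 genes tested, grouped by role; red and blue mark genes called higher and lower at an adjusted p under 0.05, grey those not called. Il18 (2.29) and Ccl20 (1.46) are the 2 called higher, and Cxcl5 has the widest bar, with an SE of 1.37.

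Compared per length, on the scale of CPM per kilobase of merged exons, the most abundant transcripts in GATA6KO were those of Nfkbia (32.7), Tnfrsf1a (20.7), Il1rn (20.3) and Rela (18.0), with Control levels of 45.9, 22.01, 41.8 and 21.8. Of the cytokine, chemokine and antagonist genes, Il1rn and Cxcl16 were among the 10 highest of the 38 in both groups, with subunits, inhibitors, the A20 adaptor Tnip1, receptors and Myd88 in the other places. Cxcl16 stood at 8.71 in GATA6KO and 17.1 in Control. Cxcl5 ranked 11 of 38 in GATA6KO and 29 of 38 in Control, Il18 ranked 16 and 25, and Cxcl10 ranked 25 and 17.

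**Figure D2:**
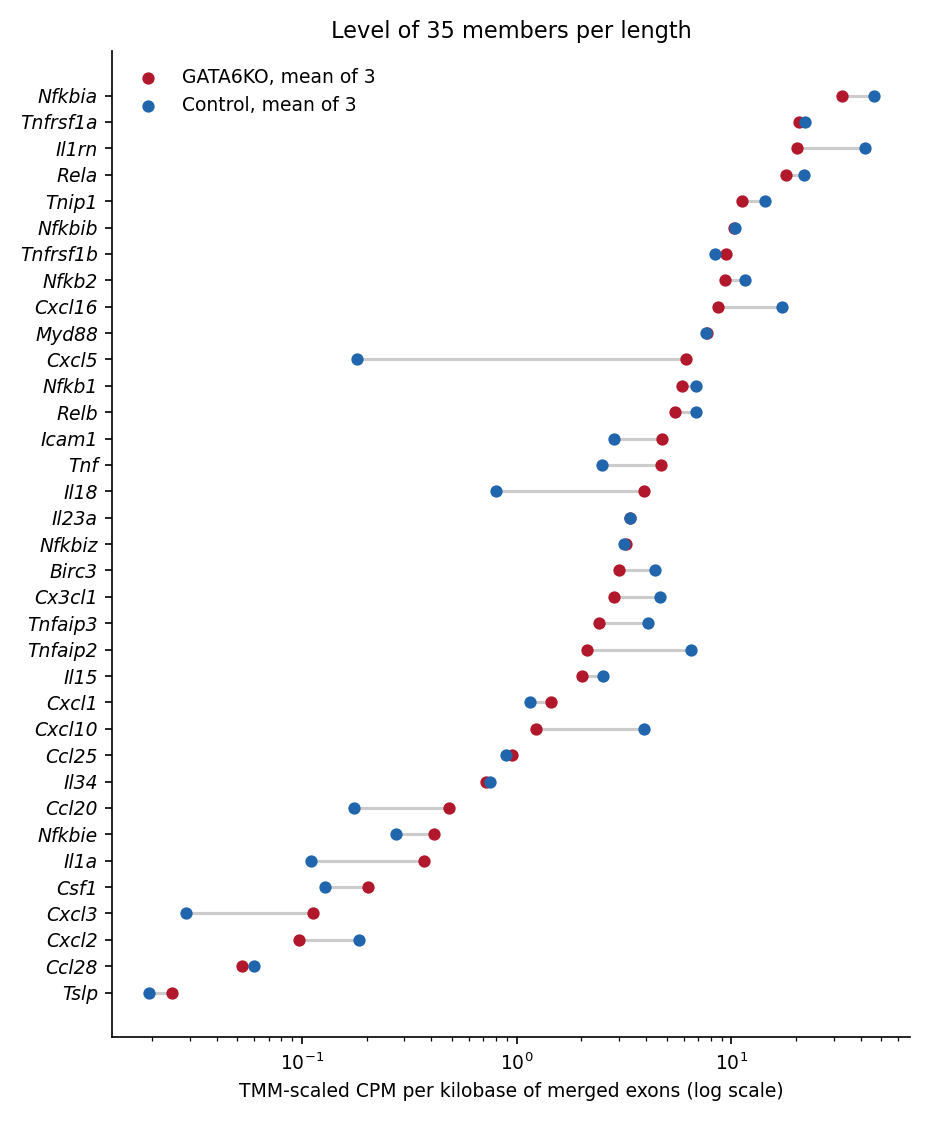
Mean CPM per kilobase of merged exons (log scale) in GATA6KO (red) and Control (blue) for the 35 genes with a count in both groups, ordered by the GATA6KO level. Most pairs lie close together at the top, while Cxcl5 shows the longest line, at 6.12 in GATA6KO and 0.181 in Control.

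The neutrophil-attracting chemokines of the set with the ELR motif were low and uneven in GATA6KO. CXC genes of their cluster that are outside the set, among them Cxcl15, are given further below. Cxcl5 (ENSMUSG00000029371, chromosome 5, 90759360 to 90761624), a ligand of the receptor CXCR2, had 37, 935 and 69 counts in GATA6KO replicates 1 to 3, against 9, 11 and 7 counts in Control. Every GATA6KO library was above every Control library, and replicate 2 held most of the counts. Its log2 fold change of 5.08 (SE 1.37) was not called by edgeR (adjusted p = 0.0584). Without GATA6KO replicate 2 the log2 fold change was 2.39 and was called (adjusted p = 0.0186), and DESeq2 called it with all libraries (5.08, adjusted p = 0.00116). Over the 16 alternatives its adjusted p ran between 0.00116 and 0.236.

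Cxcl1, which also acts on CXCR2, measured 1.74, 4.03 and 2.37 CPM in GATA6KO, against 2.28, 2.46 and 1.77 CPM in Control. The groups overlapped (log2 fold change 0.32, SE 0.37, adjusted p = 0.584, and -0.08 without GATA6KO replicate 2). Cxcl2 had 2, 4 and 12 counts in GATA6KO and 9, 10 and 12 in Control (log2 fold change -0.92, SE 0.62, adjusted p = 0.346). Cxcl3 had 4, 28 and 4 counts in GATA6KO and 3, 3 and 2 in Control, and was not tested. Of the 3 ELR genes of the set that were tested, edgeR called 0 (1 at an unadjusted p under 0.05), DESeq2 called 1 and limma-voom 0. These counts leave out Cxcl15, which is no member. Summed over Cxcl1, Cxcl2, Cxcl3 and Cxcl5, GATA6KO libraries had 3.18, 35.7 and 5.20 CPM, against 3.20, 3.29 and 2.47 CPM in Control. The ratio of the means, 4.92, was 1.40 without GATA6KO replicate 2.

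These genes sit in a cluster of 7 CXC chemokine genes on chromosome 5 (90759360 to 90905938, mm10), and 5 of the 7 had their highest level in GATA6KO replicate 2. The share of all genes that peak in that library is not given, so this count has no baseline. Of the 5, Ppbp and Cxcl3 had too few counts to be tested. Cxcl15, a chemokine gene of the cluster that is no member of the set, had 223, 1196 and 196 counts in GATA6KO, against 15, 42 and 25 in Control, and rose (log2 fold change 4.16, SE 0.84, adjusted p = 0.0258). With single libraries left out its log2 fold change ranged between 2.82 and 4.55, and the call was lost without Control replicate 1, 2 or 3. Ppbp, a platelet chemokine gene, had 7, 102 and 7 counts in GATA6KO and 2, 3 and 4 in Control. The summed cluster had 325, 2388 and 360 counts in GATA6KO and 90, 141 and 105 in Control. Of Cxcl1, Cxcl2 and Cxcl3, with the shared kB site printed above, Cxcl1 and Cxcl2 overlapped between groups. Cxcl3 was not tested, and its GATA6KO replicates 1 and 3 (0.134 and 0.133 CPM) barely cleared Control replicate 1 (0.131 CPM).

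**Figure D3:**
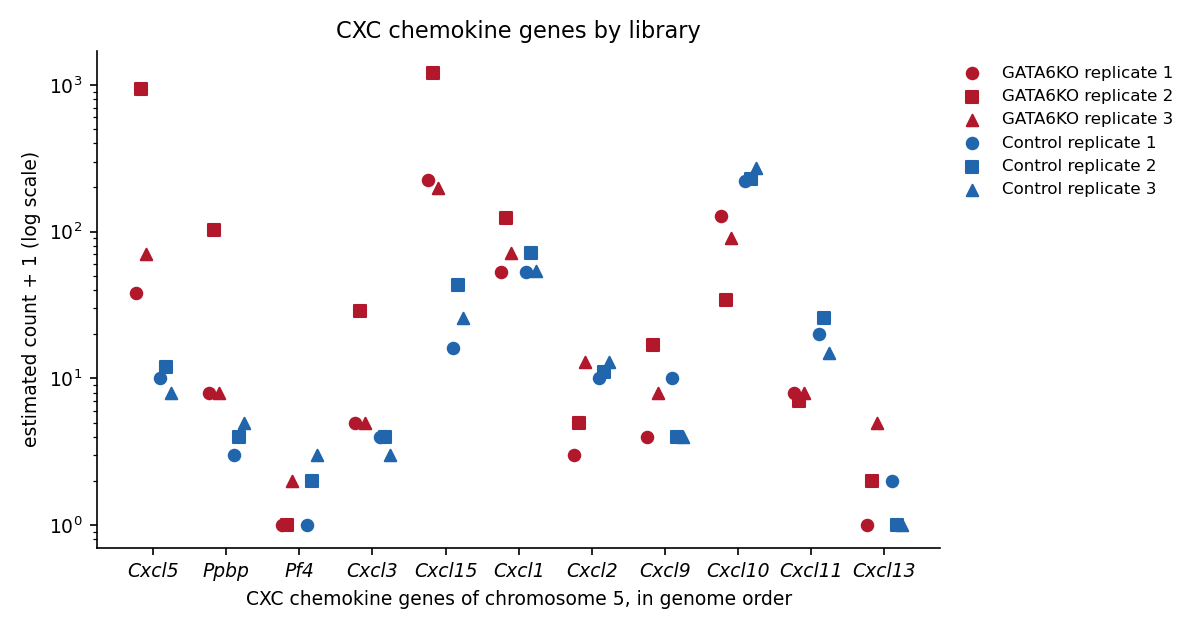
Estimated counts plus 1 (log scale) of 11 CXC chemokine genes of chromosome 5 in genome order; red marks are GATA6KO and blue marks Control, with a shape for each replicate number. The red square, GATA6KO replicate 2, is the highest mark for Cxcl5 (935 counts), Ppbp (102), Cxcl3 (28), Cxcl15 (1196), Cxcl1 (123) and Cxcl9 (16), and the lowest for Cxcl10 (33) and Cxcl11 (6).

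Among the other chemokines, Cxcl16 and Cx3cl1 fell and Ccl20 rose. Cxcl16 (ENSMUSG00000018920, chromosome 11, 70453983 to 70459984), a membrane-anchored ligand of CXCR6 that can be shed, measured 22.001, 33.1 and 23.8 CPM in GATA6KO, against 47.6, 50.3 and 57.3 CPM in Control. Its groups lay well apart, at 26.3 ± 5.96 and 51.7 ± 4.97 CPM (SD, n = 3 each), a 1.97-fold lower level (log2 fold change -0.98, SE 0.17, edgeR adjusted p = 0.0181). Cx3cl1 (ENSMUSG00000031778, chromosome 8, 94772009 to 94782427), the other transmembrane chemokine and ligand of CX3CR1, measured 9.43, 11.8 and 12.2 CPM in GATA6KO, against 19.8, 18.6 and 16.4 CPM in Control. It fell 1.64-fold (log2 fold change -0.72, SE 0.15, adjusted p = 0.0305). This call was lost with the replicate block (adjusted p = 0.0958) and with group-weighted voom (adjusted p = 0.0664). Its groups did not overlap, as for the 20.5% of all genes tested that lay lower without overlap.

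Ccl20 (ENSMUSG00000026166, chromosome 1, 83116766 to 83119167), the ligand of CCR6 made by gut epithelium over lymphoid follicles, had 20, 19 and 23 counts in GATA6KO, against 7, 6 and 7 counts in Control. The groups did not overlap, with means of 0.686 and 0.249 CPM and SDs of 0.0737 and 0.0513 (n = 3 each). This was a log2 fold change of 1.46 with an SE of 0.33 (edgeR adjusted p = 0.0361). At these low counts the call also depended on the test. It was lost without GATA6KO replicate 3 and with DESeq2, group-weighted voom, no filter, the replicate block and the test against a 1.5-fold change.

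Cxcl10 (ENSMUSG00000034855, chromosome 5, 92346638 to 92348889), an interferon-inducible ligand of CXCR3 with 2 of the kB matches printed above, measured 4.25, 1.08 and 2.97 CPM in GATA6KO, against 9.64, 7.90 and 9.004 CPM in Control. All 3 GATA6KO libraries were below Control, with replicate 2 lowest. EdgeR did not call it (log2 fold change -1.68, SE 0.46, adjusted p = 0.0598), while DESeq2 and limma-voom did (adjusted p = 0.00268 and 0.0369; range over the alternatives 0.00268 to 0.203). Its neighbour Cxcl11, another CXCR3 ligand and no member, fell (log2 fold change -1.68, SE 0.38, edgeR adjusted p = 0.0368), at 0.221 CPM in GATA6KO and 0.722 CPM in Control. Cxcl11 had only 7, 6 and 7 counts in GATA6KO and 19, 25 and 14 in Control. Its call was lost with DESeq2, group-weighted voom, no filter, the replicate block and the test against a 1.5-fold change. The same held without GATA6KO replicate 2 or 3 or any Control library.

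Ccl25, a ligand of CCR9 typical of small intestine, measured 5.35, 8.29 and 7.504 CPM in GATA6KO and 7.58, 6.86 and 5.50 CPM in Control, with overlapping groups (log2 fold change 0.09, SE 0.23, adjusted p = 0.832). Ccl28, a mucosal chemokine, had 1, 13 and 9 counts in GATA6KO and 5, 12 and 7 in Control. Among receptors of the ligands above, Cxcr2 had 18 to 24 counts in GATA6KO and 14 to 28 in Control, and Ccr6 and Ccr9 had 0 counts in all 6 libraries. Cxcr6 had 0, 4 and 0 counts in GATA6KO and 0 in each Control library, and Cx3cr1 had 4, 13 and 5 counts in GATA6KO and 2, 2 and 4 in Control. Cxcr3 had 4, 59 and 1 counts in GATA6KO and 0 in each Control library, with nearly all of them in replicate 2.

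Il18 showed the largest called increase of the set. Il18 (ENSMUSG00000039217, chromosome 9, 50554827 to 50581840), a cytokine of the interleukin-1 family that epithelia store as a precursor, measured 3.14, 3.31 and 5.67 CPM in GATA6KO, against 0.701, 0.936 and 0.834 CPM in Control. The lowest GATA6KO library was above the highest Control library, and the means were 4.04 ± 1.41 and 0.824 ± 0.118 CPM (SD, n = 3 each). This is 4.88-fold higher (log2 fold change 2.29, SE 0.34, edgeR adjusted p = 0.00971), a call also made under each of the 10 other settings that keep all libraries.

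Il1rn (ENSMUSG00000026981, chromosome 2, 24336853 to 24351494), which encodes the antagonist that blocks the interleukin-1 receptor, had the highest level per kilobase of the secreted products and fell. It measured 106, 143 and 87.3 CPM in GATA6KO, against 223, 242 and 228 CPM in Control. No GATA6KO library came near Control, and the 2.06-fold lower level had a log2 fold change of -1.04 (SE 0.18, edgeR adjusted p = 0.0161). The table does not separate its secreted and intracellular isoforms.

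Il1a, an interleukin-1 agonist, had 41, 14 and 11 counts in GATA6KO, against 4, 6 and 8 counts in Control. The groups did not overlap, and GATA6KO replicate 1 was highest (log2 fold change 1.72, SE 0.61, adjusted p = 0.110, not called). Il1b, the other agonist, had 1 count in all 6 libraries together. Tnf, the founding ligand of its family, measured 5.15, 5.34 and 12.7 CPM in GATA6KO, against 4.07, 3.92 and 4.24 CPM in Control, with replicate 3 far above the others (log2 fold change 0.92, SE 0.38, adjusted p = 0.152, not called).

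**Figure D4:**
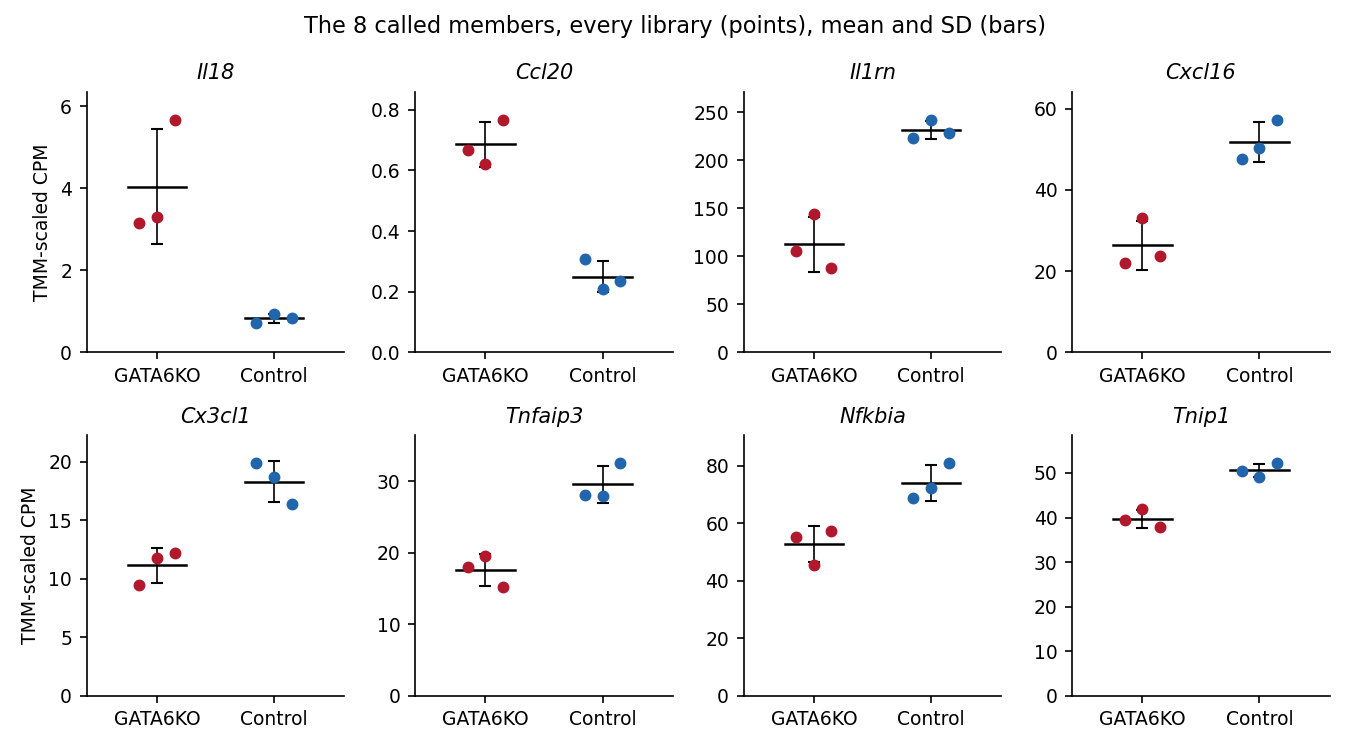
TMM-scaled CPM in every library (points), with mean (line) and SD (bars; n = 3 each), for the 8 genes called, GATA6KO left and Control right; each panel has its own axis from 0. The 2 groups do not overlap in any of the 8 panels, as for 40.8% of all genes tested. Only called genes are shown, so this lack of overlap is no added support. Il1rn, for example, has means of 112 CPM in GATA6KO and 231 CPM in Control.

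None of the other cytokines was called, and several were barely present. Il23a, the specific subunit of interleukin-23, averaged 7.55 CPM in both groups (SD 1.495 and 0.512, n = 3 each; log2 fold change 0.00, SE 0.20, edgeR adjusted p = 0.9999), and Il15, a growth factor of intraepithelial lymphocytes, 4.56 ± 0.708 CPM in GATA6KO and 5.74 ± 0.835 CPM in Control (log2 fold change -0.33, adjusted p = 0.335). Csf1 and Il34, which share the receptor CSF1R on macrophages, averaged 1.07 and 1.41 CPM in GATA6KO and 0.674 and 1.47 CPM in Control, and neither was called (adjusted p = 0.273 and 0.924). Csf2 had 0 counts in every library, Il6 had 1 count in all, and Tslp had at most 1 count in a library.

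The members of the interleukin-1 family were read together with the family genes on the other lists, a grouping made after values were seen. Of 18 such genes, 17 had a row and 10 were tested. Among those, 4 rose and 2 fell, beside 6.92% and 5.47% of all genes tested. Because the grouping followed the values, these counts cannot be weighed against those shares. The 7 not tested had at most 16 counts in a library. Il1r1 (ENSMUSG00000026072), the signalling receptor for interleukin-1, measured 41.2, 48.6 and 28.1 CPM in GATA6KO, against 8.41, 7.73 and 7.67 CPM in Control. It rose 4.95-fold (log2 fold change 2.31, SE 0.21, edgeR adjusted p = 0.00252) and stayed called without any single library. Il1rap, the co-receptor, had 14.1, 16.7 and 17.1 CPM in GATA6KO and 8.89, 9.29 and 10.505 CPM in Control, and rose (log2 fold change 0.74, SE 0.15, adjusted p = 0.0234). Il33, an alarmin stored in the nucleus, had 101, 119 and 71.2 CPM in GATA6KO and 47.1, 48.0 and 57.2 CPM in Control, and rose (log2 fold change 0.93, SE 0.19, adjusted p = 0.0284).

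Sigirr, an inhibitory member of the receptor family, fell, with 34.4, 30.03 and 24.2 CPM in GATA6KO and 47.1, 44.9 and 50.2 CPM in Control (log2 fold change -0.68, SE 0.14, edgeR adjusted p = 0.0286). Il1r2, the decoy receptor for interleukin-1, had 5, 16 and 4 counts in GATA6KO, against 0, 1 and 0 counts in Control, and was not tested. The agonists Il1a and Il1b were at 0.732 and 0.0111 CPM in GATA6KO and 0.217 and 0 CPM in Control. The interleukin-18 receptor chain Il18rap and the binding protein Il18bp were not called (adjusted p = 0.321 and 0.472), and Il18r1 had at most 8 counts in a library. The calls of Il1rap, Il33 and Sigirr were each lost when any Control library (replicate 1, 2 or 3) was left out, where the adjusted p reached 0.133, 0.127 and 0.1302.

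**Figure D5:**
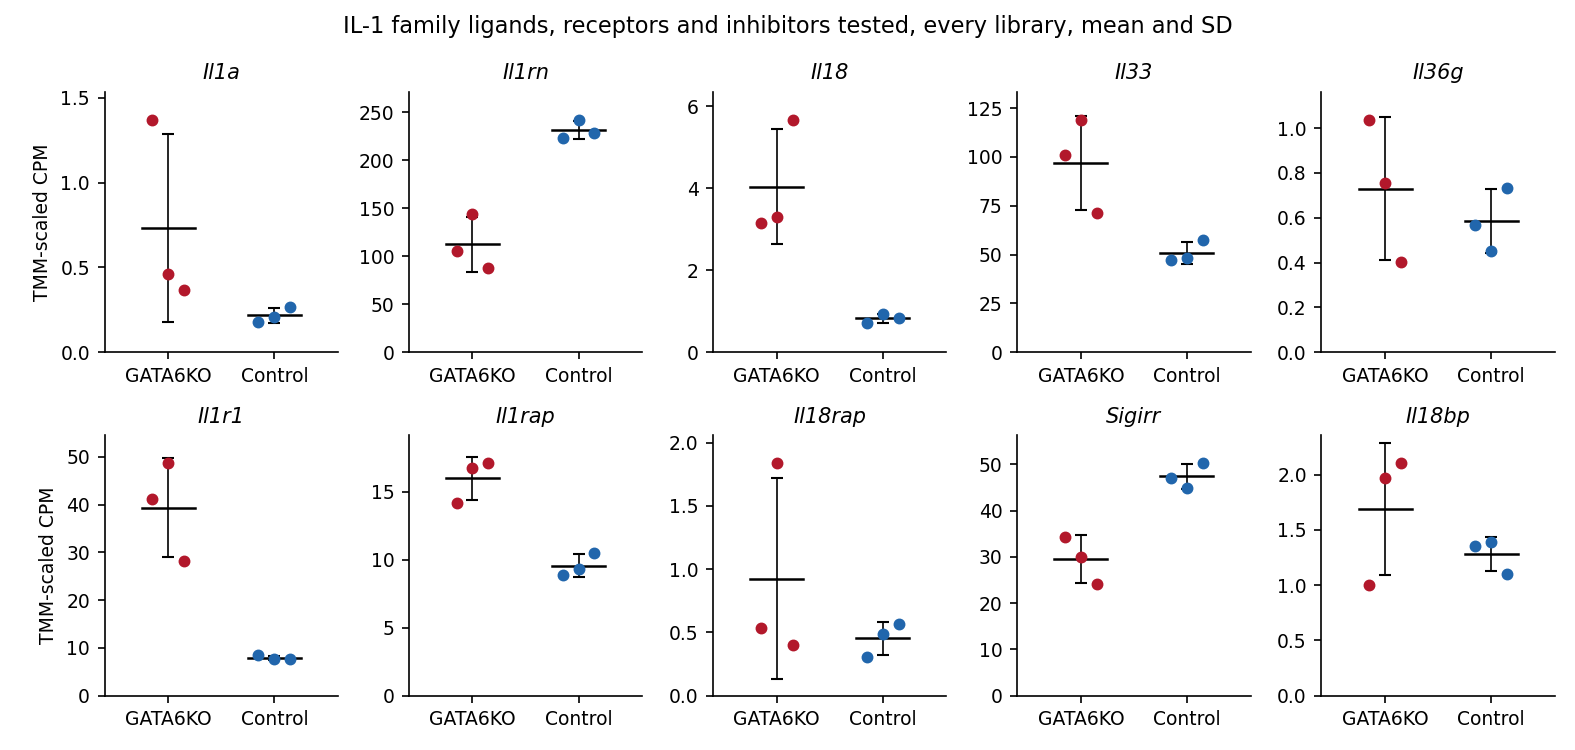
TMM-scaled CPM in every library (points), with mean (line) and SD (bars; n = 3 each), for the 10 interleukin-1 family genes tested, GATA6KO left and Control right; each panel has its own axis from 0. Il18, Il33, Il1r1 and Il1rap lie higher in GATA6KO and Il1rn and Sigirr lower, without overlap, while Il36g, Il18rap and Il18bp overlap. Il1a also lies higher in GATA6KO without overlap but was not called.

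The NF-kB subunits lay slightly below Control in GATA6KO without passing the test. Rela, the p65 transactivating subunit, had 58.5, 60.7 and 47.1 CPM in GATA6KO, against 64.3, 65.9 and 71.0 CPM in Control (log2 fold change -0.27, SE 0.12, adjusted p = 0.169). Nfkb1 and Nfkb2 encode precursors of DNA-binding subunits, and Relb the partner used by the non-canonical arm; their log2 fold changes were -0.21, -0.31 and -0.33 (adjusted p = 0.226, 0.1001 and 0.107). All 4 had lower values in each GATA6KO library than in any Control library, which holds for 20.5% of all genes tested. EdgeR, DESeq2 and limma-voom each called 0 of the 4, with 2 at an unadjusted p under 0.05 by each. Summed, the 4 had 202, 200 and 170 CPM in GATA6KO and 225, 227 and 236 CPM in Control.

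Of the IkB family, Nfkbia fell and the others did not pass. Nfkbia (ENSMUSG00000021025, chromosome 12, 55489410 to 55492647), the inhibitor that NF-kB itself induces, measured 55.1, 45.5 and 57.3 CPM in GATA6KO, against 68.7, 72.3 and 80.8 CPM in Control. The groups did not overlap, and the 1.41-fold lower level had a log2 fold change of -0.49 (SE 0.12, edgeR adjusted p = 0.0449). The call was lost without GATA6KO replicate 2, with scaling to the library total alone and with the replicate block. Group-weighted voom (adjusted p = 0.0718) and the test against a 1.5-fold change did not make it either. Nfkbib, a second cytoplasmic inhibitor, was nearly level at 22.2 ± 1.54 CPM in GATA6KO and 22.5 ± 0.371 CPM in Control (SD, n = 3 each), and Nfkbiz, a nuclear member that helps switch on selected targets, at 16.2 ± 3.63 and 15.9 ± 0.420 CPM. Nfkbie had 37, 21 and 55 counts in GATA6KO and 23, 22 and 22 in Control (log2 fold change 0.59, SE 0.41, adjusted p = 0.366).

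The brakes Tnfaip3 and Tnip1 fell beside Nfkbia. Tnfaip3 (ENSMUSG00000019850, chromosome 10, 19000910 to 19015657) encodes A20, a ubiquitin-editing enzyme that shuts down signalling from tumour necrosis factor and Toll-like receptors. It measured 18.0, 19.5 and 15.1 CPM in GATA6KO, against 28.1, 28.0 and 32.5 CPM in Control, a 1.68-fold lower level in which every GATA6KO library was below Control (log2 fold change -0.75, SE 0.14, edgeR adjusted p = 0.0189). With the replicate block it was not called (adjusted p = 0.0684). Tnip1 (ENSMUSG00000020400, chromosome 11, 54910785 to 54962917), an adaptor that binds A20, measured 39.5, 41.8 and 37.8 CPM in GATA6KO, against 50.3, 49.2 and 52.2 CPM in Control. Its difference was small and tight (log2 fold change -0.35, SE 0.09, adjusted p = 0.0473). Neither limma-voom, group-weighted voom, library-total scaling, no filter, the replicate block nor the test against a 1.5-fold change called it. The fit without GATA6KO replicate 3 did not call it either.

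The remaining targets differed among GATA6KO libraries. Tnfaip2, a target induced by tumour necrosis factor, had 25.5, 4.92 and 1.40 CPM in GATA6KO, against 30.2, 33.7 and 33.1 CPM in Control. GATA6KO replicate 1 was close to Control and replicates 2 and 3 far below, so that the log2 fold change of -1.61 had an SE of 0.88 (adjusted p = 0.259); without replicate 1 it was -3.35 (edgeR adjusted p = 0.0112; range over the alternatives 0.0112 to 0.771). Birc3, an inhibitor of apoptosis in receptor complexes, had 17.2, 7.74 and 20.2 CPM in GATA6KO and 23.0, 21.9 and 21.3 CPM in Control, low mainly in replicate 2 (log2 fold change -0.55, SE 0.33, adjusted p = 0.292). Icam1, a ligand for leukocyte integrins, pointed upward at 13.4, 23.5 and 25.1 CPM in GATA6KO and 13.3, 11.7 and 12.1 CPM in Control (log2 fold change 0.74, SE 0.24, edgeR adjusted p = 0.0929, and 0.0339 by DESeq2; range over the alternatives 0.00485 to 0.707).

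Receptors and the adaptor of the set were not called by edgeR, DESeq2 or limma-voom, with 0 at an unadjusted p under 0.05 by edgeR. Tnfrsf1a and Tnfrsf1b, the receptors for tumour necrosis factor, averaged 53.6 ± 10.6 and 36.0 ± 7.81 CPM in GATA6KO and 57.0 ± 3.68 and 32.04 ± 2.12 CPM in Control (SD, n = 3 each). Myd88, the adaptor below Toll-like and interleukin-1 receptors, averaged 19.8 ± 4.02 CPM in GATA6KO and 19.7 ± 1.79 CPM in Control. Their log2 fold changes were -0.09, 0.17 and 0.00, each with an SE of 0.15 to 0.18.

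Spread within a group was wider in GATA6KO for 31 of the 32 genes tested. Over the 32, the median SD was 22.1% of the mean in GATA6KO and 7.26% in Control, and Ccl20 was the exception (10.7% and 20.6%). The wider spread was not particular to the set: over all genes tested, the median SD of log2(CPM + 1) was 0.227 in GATA6KO and 0.083 in Control. The libraries did not rank alike across genes: replicate 2 was highest for Cxcl5, replicate 1 for Il1a and Tnfaip2, and replicate 3 for Tnf and Il18.

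Other genes of the pathway came from 5 lists outside the set, also chosen with earlier results of these data known. Of 66 other cytokine and chemokine ligands, 18 were tested, with 2 higher (Cxcl15 and Il33) and 2 lower (Cxcl11 and Lif). Lif, a cytokine of the interleukin-6 class, had 2.54 CPM in GATA6KO and 5.33 CPM in Control (log2 fold change -1.07, adjusted p = 0.04998). Its call was lost with library-total scaling, no filter, the replicate block and the test against a 1.5-fold change. The same held without GATA6KO replicate 1 or 3 or any Control library. The 2 higher and 2 lower ligands are 11.1% each, where 6.92% of all genes tested were called higher and 5.47% lower. Among 53 receptors tested 6 rose and 6 fell (11.3% each). Besides Il1r1, the scavenging chemokine receptor Ackr3 rose to 18.1 ± 3.48 CPM in GATA6KO, against 3.64 ± 0.686 CPM in Control (SD with 3 libraries each), a log2 fold change of 2.32 (edgeR adjusted p = 0.00282). Tlr1, a lipopeptide receptor chain, rose by 1.87 and Osmr, the oncostatin M receptor, by 1.95. Ifngr1, a chain of the interferon-gamma receptor, fell to 29.4 ± 4.60 CPM, against 64.4 ± 2.86 CPM in Control (log2 fold change -1.13, adjusted p = 0.00477), and Il13ra1, a chain for interleukins 4 and 13, fell to 27.1 ± 8.98 CPM, against 80.8 ± 4.73 CPM in Control (log2 fold change -1.58, adjusted p = 0.00875).

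Of 60 signalling components tested, 2 rose and 2 fell (3.33% each), below the shares over all genes. Traf3ip2, the adaptor of interleukin-17 receptors, rose by 0.72 and Traf4 by 0.42, while Ripk3, the necroptosis kinase, fell by 1.72 and Card14 by 0.82 on the log2 scale (adjusted p = 0.0166, 0.0285, 0.0279 and 0.0435). Ripk3 lies on chromosome 14, and its 108, 44.0 and 124 CPM in GATA6KO, against 279, 295 and 332 CPM in Control, were lowest in replicate 2. Other NF-kB targets were lower more often than higher, 11 against 3 of 41 tested (26.8% and 7.32%, where all genes tested gave 5.47% and 6.92%), and many of them also answer to other factors. Cfb, complement factor B, had 0.222 ± 0.0970 CPM in GATA6KO and 4.03 ± 0.203 CPM in Control (SD over 3 libraries each), with a log2 fold change of -4.16 (edgeR adjusted p = 0.00203). Klf6, Cebpb, Hbegf and Atf3 fell by 1.08, 1.25, 0.92 and 2.07 on the log2 scale.

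Inflammasome and pyroptosis genes, whose caspases process interleukin-18, had 1 higher and 2 lower of 19 tested, where 6.92% and 5.47% of all genes were called. Nlrp6, an epithelial sensor, had 3, 1 and 2 counts in GATA6KO, against 80, 109 and 94 counts in Control (log2 fold change -5.62, edgeR adjusted p = 0.00145). Gsdmd, the pore former of pyroptosis, fell by 0.89 (adjusted p = 0.0123), and Gsdma, its relative of skin, rose by 2.58 (adjusted p = 0.00516). Casp1, which cleaves interleukin-18, had 3.21, 0.918 and 10.2 CPM in GATA6KO and 4.16, 4.54 and 3.90 CPM in Control (adjusted p = 0.891), and the adaptor Pycard had 3, 0 and 0 counts in GATA6KO and 8, 9 and 15 in Control. Casp1 and Pycard were chosen after their values were seen. The median log2 fold changes of the 5 lists, in the order given, were -0.08, -0.04, -0.07, -0.20 and -0.08, against 0.02 over all genes tested. Over the 5 lists, 14 of 191 genes tested rose (7.33%, against 6.92% of all genes) and 23 fell (12%, against 5.47%). Il1r1, Ackr3, Ifngr1, Il13ra1, Cfb, Nlrp6 and Gsdma were called without each of the 6 libraries in turn.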

How the data were processed

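Poly(A)-selected RNA of 6 AKP organoid libraries was prepared with a strand-marking kit, per the labels' protocols. The authors deposited estimated counts per gene in whole numbers, not scaled between libraries. Salmon 1.3.0 and mm10 appear, per the submitters' processing notes, which say nothing of their roles; the sources used here give neither annotation nor strand setting. Salmon-type estimates divide reads among similar transcripts, which matters for related chemokine genes. Symbols, coordinates and exon lengths came from GENCODE M21 by Ensembl identifier (54166 of 54418 matched), and 3 listed symbols were found through RefSeq synonyms. Promoters came from RefSeq (GRCm38.p6).

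Genes passing edgeR's filterByExpr (the CPM worth about 10 counts in 3 libraries, 15 counts in all; 14714 kept) were scaled by TMM and tested by the quasi-likelihood test with robust estimation, no block, and Benjamini-Hochberg adjustment over all genes tested at 0.05. An adjusted p without a named tool is from this test. CPM are counts per 1000000 on TMM-scaled library sizes. SE is the log2 fold change over the root of the F statistic. The fits ran in edgeR 4.0.16 under R 4.3.3, with DESeq2 1.42.0 and limma 3.58.1 for alternatives. The script was tested on simulated data with the same spread in both groups, unlike these data, where GATA6KO was more spread. Alternatives were other scalings, tests and filters, a replicate block, and each library left out. Same-numbered libraries were not treated as pairs, since no label says that a replicate number marks a shared culture, day or animal. Their deviations from group means correlated at -0.05, 0.10 and -0.12 across genes. Libraries of unlike number ran from -0.20 to 0.23, so these values cannot show whether pairs exist.

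The members and the lists were chosen with earlier results of these data known. All members were described; from each of the 5 pathway lists up to 6 called genes with at least 1 CPM were named by smallest p, and from the epithelial and immune marker lists the 3 with the highest CPM, with 1 from each of the other marker lists, the rest of which were near 0. Il1rap, Il1r2, Sigirr, Il18rap, Il18bp, Il18r1, Cxcl11, Ppbp, Ptprc, Cxcr2, Ccr6, Ccr9, Cxcr6, Cx3cr1, Cxcr3, Casp1 and Pycard were named outside this rule, after their values were seen. One gene that the rule names is not reported here, and no value was left out for its result.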

Additional observations from a re-analysis of the deposited data

How the results depend on the processing

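All 8 member calls were lost without Control replicate 1, 2 or 3. The 1823 genes called became 3238 with DESeq2, 525 against a 1.5-fold change and 827 with the replicate block, and 332 to 4360 with single libraries left out. The 2 members called higher became 1 with no filter, with a filter of 1 CPM across a group's libraries, against a 1.5-fold change and with the replicate block, and 0 to 4 with single libraries left out (4 without GATA6KO replicate 1). The 6 called lower became 0 against a 1.5-fold change (edgeR's glmTreat, 4 at an unadjusted p under 0.05) and 2 with the replicate block, and 0 to 9 with single libraries left out. Of the pathway lists, 14 higher became 4 against a 1.5-fold change, 7 with the block and 3 to 24 with single libraries left out, and 23 lower became 35, 7 and 12 with DESeq2, the 1.5-fold test and the block, and 5 to 41 with single libraries left out. Gata6 missed the threshold with library-total scaling (-0.91, adjusted p = 0.0573), the 1.5-fold test (-0.99, adjusted p = 0.299) and the block (-1.03, adjusted p = 0.0915), and lay at -1.18 to -0.75 with single libraries left out. The cause was not tested. Sign changes (log2 fold change) were seen in members that were not called. Cxcl1 gave -0.0778 to 0.56 with single libraries left out. Ccl25 gave -0.0475 to 0.25 with single libraries left out. Il34 gave 0.0212 with library-total scaling and -0.41 to 0.11 with single libraries left out. Il23a gave 0.0726 with library-total scaling, 0.0174 with no filter, 0.0024 with the 1 CPM filter and -0.12 to 0.15 with single libraries left out. Nfkbib gave 0.0585 with library-total scaling, 0.0012 with no filter and -0.0476 to 0.041 with single libraries left out. Nfkbiz gave -0.13 to 0.19 with single libraries left out. Tnfrsf1a gave -0.25 to 0.0293 with single libraries left out. Myd88 gave -0.001 with RLE scaling, -0.0007 with DESeq2, -0.0071 with limma-voom, -0.0061 with group-weighted voom, -0.013 with the replicate block and -0.12 to 0.16 with single libraries left out. Low counts kept 6 members out of the test.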
